A study of Mus musculus with 6 samples.

Results

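The mitochondrial genome of the mouse carries 37 genes, and all of them are rows of the deposited expression table, where their symbols start with mt-. They were chosen by that prefix alone, without use of any measured value, and make up 37 of the 55426 genes listed. They comprise 13 mRNA genes, 2 rRNA genes and 22 tRNA genes. Their transcripts were measured by RNA-seq in the abdominal aorta of 3 control mice and 3 Prdm16SMKO mice, 1 library per mouse, to see how mitochondrial RNA compares between aortas with and without Prdm16 in vascular smooth muscle cells (VSMCs). Prdm16SMKO mice were Prdm16 fl/fl mice with Myh11-CreERT2, a Cre recombinase active in VSMCs only after tamoxifen, and the control mice carried Myh11-CreERT2 with wild-type Prdm16. All 6 mice were males of the C57BL/6J strain. The study's methods treat male mice 8 to 10 weeks old with tamoxifen by gavage at 75 mg/kg/day for 5 days and use them 2 weeks later. The exact age at which these aortas were taken is not given separately. The RNA came from the whole vessel, so cells in which the Cre is not active contributed to each library. In such bulk RNA, fewer cells of a type and less RNA per cell cannot be told apart.

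The mitochondrial genome is a small circle that is transcribed from both strands into long RNAs. The tRNAs lie between most of the other genes and are cut out of these RNAs, which sets free the mRNAs and rRNAs on either side. The mRNAs then receive short poly(A) tails. They encode subunits of the respiratory chain complexes I, III and IV and of ATP synthase (complex V), whose other subunits are encoded in the nucleus, while the rRNAs and tRNAs serve the mitochondrial ribosome that translates them.

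The library preparation and the layout of these genes both bear on the values, and a few sequences show how. The libraries were made from RNA selected for poly(A) and read as pairs of 151 bp. All sequences are those of GENCODE M21 on GRCm38, and positions are on chromosome M. Of the 13 mRNAs, 10 end in a whole stop codon and 3 end in a lone T, which the poly(A) tail completes to a stop codon. The last 18 bases of those 3 are given with the T in capitals, followed for comparison by the end of mt-Nd5 with its whole stop codon in capitals.
mt-Co3 (chrM:8607-9390, plus strand): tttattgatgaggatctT
mt-Nd4 (chrM:10167-11544, plus strand): ttacaggcctgacaataT
mt-Cytb (chrM:14145-15288, plus strand): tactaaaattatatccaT
mt-Nd5 (chrM:11742-13565, plus strand): tcaattaatctcgagTAA

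Some neighbouring genes overlap, so that reads from the overlap belong to both. The last 43 bases of mt-Atp8 are also the first 43 bases of mt-Atp6 (chrM:7927-7969), and the last 7 bases of mt-Nd4l are the first 7 of mt-Nd4 (chrM:10167-10173). In the stretches that follow, capitals mark the shared bases.
mt-Atp8, end: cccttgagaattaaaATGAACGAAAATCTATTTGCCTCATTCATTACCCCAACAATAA
mt-Atp6, start: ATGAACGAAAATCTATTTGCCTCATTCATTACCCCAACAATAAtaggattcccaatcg
mt-Nd4l, end: tctcaacctactacaATGCTAA
mt-Nd4, start: ATGCTAAaaattattcttccct

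The shortest and the longest of the 22 tRNAs are shown because their length separates them from every gene that was detected. mt-Ts2, a serine tRNA, has 59 bases, and mt-Tl1, a leucine tRNA, has 75.
mt-Ts2 (chrM:11613-11671, plus strand): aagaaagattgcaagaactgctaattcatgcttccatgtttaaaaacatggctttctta
mt-Tl1 (chrM:2676-2750, plus strand): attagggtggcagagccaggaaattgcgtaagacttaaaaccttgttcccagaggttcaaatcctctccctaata

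Expression is given in TPM, a level per transcript length that is scaled to the same total in each library and is meant for comparison between genes. For very short genes and for genes with copies of the same sequence that comparison is limited, as the values of mt-Atp8, mt-Atp6 and the tRNAs show. The submitters give 40 M read pairs as the mean depth over samples. The depth of each single library is unknown, and no counting interval or limit of detection could be computed. Between 20332 and 22100 genes were above 0 TPM in a library. Where 3 values are given for a group, they stand in the order of replicates 1, 2 and 3. The control libraries held 33.4, 36.8 and 30.8 TPM of Prdm16 itself and the Prdm16SMKO libraries 20.8, 27.7 and 14.8 TPM, with no overlap between the groups. Its exons were counted whole, and its change did not pass the test over all genes (limma, log2 fold change -0.70, SE 0.23, adjusted p = 0.376). The summed level of 6 VSMC markers (Myh11, Acta2, Tagln, Cnn1, Smtn and Myocd), all of them above 0 in every library, was 16216, 24754 and 14571 TPM in the control libraries and 17162, 13206 and 11185 TPM in the Prdm16SMKO libraries, which overlapped. Of the 6, 5 were lower in Prdm16SMKO mice, whereas 54.2% of all genes tested were higher, and the median log2 fold change was -0.39. Of the VSMC markers, 2 had an unadjusted p under 0.05, beside 8.74% of all genes, and 0 were called by limma. Their part in the mitochondrial values was not tested. Nothing in the labels says that the 3 libraries of a group differ in anything but the mouse, and p-values measure the spread between these libraries.

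Mitochondrial transcripts were among the most abundant RNAs in all 6 aortas, and their share varied most between Prdm16SMKO mice. They accounted for 21.1%, 23.2% and 19.1% of library TPM in the control libraries, and for 27.3%, 15.8% and 27.4% in the Prdm16SMKO libraries. The lowest and the highest share were thus both found in Prdm16SMKO libraries, and the groups overlapped. The mean was 21.2% ± 2.04 (SD, n = 3) in control mice and 23.5% ± 6.67 (SD, n = 3) in Prdm16SMKO mice. This difference of 2.32 percentage points was smaller than the spread between the Prdm16SMKO libraries (two-sided exact permutation test, p = 0.6, where 0.1 is the smallest value that 3 libraries against 3 allow). Without Prdm16SMKO replicate 2 the difference was 6.17 percentage points (exact permutation p = 0.1), and without Prdm16SMKO replicate 1 or replicate 3 it was 0.422 and 0.364 percentage points. Leaving out control replicate 3 gave 1.304 percentage points.

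Other abundant RNA moved between the libraries as well, and TPM shares of a library are not independent of each other. The 4 genes listed at the 45S locus of nuclear ribosomal RNA (CT010467.1, Gm42418, Gm26917 and AY036118) held 24.999%, 15.6% and 31.4% of library TPM in the control libraries and 15.7%, 29.9% and 21.7% in the Prdm16SMKO libraries. Within the control group, the library with the most 45S RNA had the smallest mitochondrial share and that with the least had the largest. With these 4 genes left out of the total, an alternative added after seeing the data, the mitochondrial share of the control libraries narrowed to 28.2%, 27.5% and 27.9% (mean 27.9% ± 0.341, SD, n = 3). The Prdm16SMKO libraries remained far apart at 32.3%, 22.5% and 35.0% (mean 29.9% ± 6.59, SD, n = 3), and the difference of 2.08 percentage points was again within their spread (exact permutation p = 0.7).

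**Figure D1:**
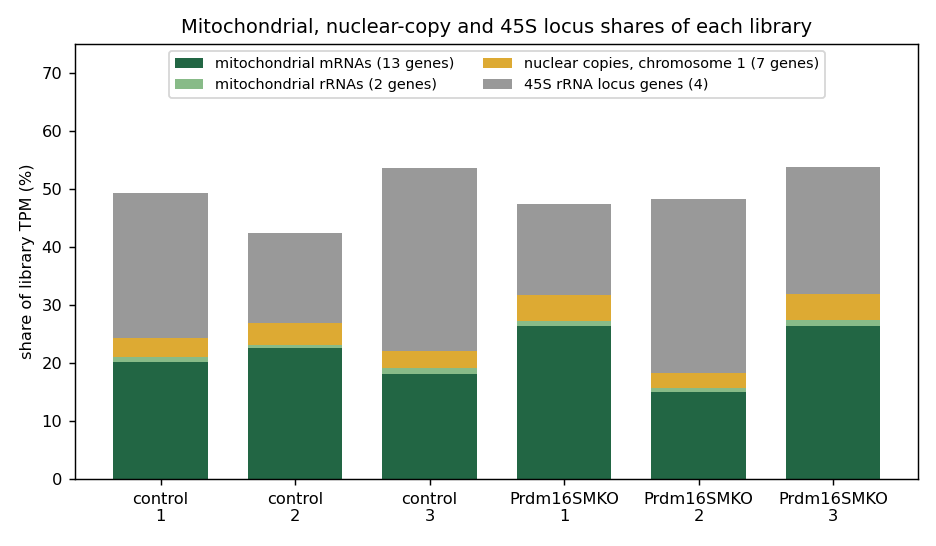
Stacked bars give the share of library TPM, in percent, held by mitochondrial transcripts, by nuclear copies of mitochondrial genes on chromosome 1 and by the 45S locus genes, with 1 bar for each of the 3 control and 3 Prdm16SMKO libraries. The mitochondrial share runs from 15.8% to 27.4%, both in Prdm16SMKO libraries, and the 45S share from 15.6% to 31.4%, both in control libraries.

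Prdm16SMKO replicate 2, which had the lowest mitochondrial share, also differed from the other libraries in RNA of other cells. Its summed haemoglobin RNA (Hba-a1, Hba-a2, Hbb-bs and Hbb-bt, chosen after their values were seen) was 19489 TPM, against 1138 to 3156 TPM in the control libraries and 4932 and 2183 TPM in the other Prdm16SMKO libraries. It also had the highest summed level of 6 endothelial markers, 460 TPM against 220 to 293 TPM in the control libraries, of 6 macrophage markers, 169 TPM against 59.9 to 92.2 TPM, and of 6 adventitial fibroblast markers, 1340 TPM against 699 to 894 TPM. The endothelial markers were mixed. Pecam1 (200 TPM), Vwf (107 TPM) and Tie1 (22.55 TPM) were highest in this library, and Cdh5 was above every control library. Kdr was lowest in it, at 5.04 TPM, and Egfl7, at 89.8 TPM, lay between control values of 79.0 and 97.1 TPM. Prdm16SMKO replicate 3 was also above every control library for the macrophage markers, at 129 TPM, and for the fibroblast markers, at 974 TPM. Over the groups, all 6 macrophage markers had a log2 fold change above 0, beside 54.2% of all genes, with a median of 0.76. Of them, 4 had an unadjusted p under 0.05, beside 8.74% of all genes, and 0 were called by limma. The summed level of 6 brown adipocyte markers was lowest in Prdm16SMKO replicate 2, at 18.1 TPM, with Ucp1, Cox7a1 and Elovl3 at 0. Brown adipocytes are rich in mitochondria, and the same sum was 742 TPM in Prdm16SMKO replicate 3, 136 TPM in Prdm16SMKO replicate 1 and 91.1 to 282 TPM in the control libraries. The 6 white adipocyte markers summed to 3730 TPM in Prdm16SMKO replicate 3, and to 733 to 1521 TPM elsewhere. Markers of cardiomyocytes stayed between 20.6 and 29.6 TPM, with Myl7 at 0 throughout. Markers of skeletal muscle stayed between 2.50 and 70.9 TPM, with the highest sum in Prdm16SMKO replicate 1. The part of any of these cells in the mitochondrial share was not tested.

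Among the mitochondrial classes, mRNA dominated these libraries. The 13 mRNAs held 95.5%, 97.3% and 94.5% of mitochondrial TPM in the control libraries and 96.8%, 96.0% and 96.2% in the Prdm16SMKO libraries. The rRNAs held the rest, and the tRNAs held 0% in all 6 libraries. The rRNA share was 4.47%, 2.75% and 5.52% in the control libraries and 3.21%, 4.04% and 3.82% in the Prdm16SMKO libraries. The Prdm16SMKO values all lay within the range of the control values. The means, 4.25% ± 1.40 and 3.69% ± 0.430 (SD, n = 3 each), did not differ beyond the spread between libraries (exact permutation p = 0.6). The sign of this difference rested on single control libraries, since it was 0.0782 percentage points without control replicate 3 and -1.31 percentage points without control replicate 2.

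The rRNA share spread further between the control libraries than any share of a single mRNA did, and its highest and lowest values fell in the same libraries as those of the nuclear 45S RNA. Control replicate 3 was highest and control replicate 2 lowest in both. Ranked from the highest, the rRNA share ran control 3, control 1, Prdm16SMKO 2, Prdm16SMKO 3, Prdm16SMKO 1 and control 2, and the 45S share differed from this order only in the exchange of control 1 and Prdm16SMKO 2. Both classes are ribosomal RNA without long poly(A) tails, and the part of poly(A) selection in either was not tested.

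mt-Rnr1, the 12S rRNA of the small subunit of the mitochondrial ribosome (chrM:70-1024), was at 5261, 3357 and 5942 TPM in the control libraries and at 4523, 3538 and 5560 TPM in the Prdm16SMKO libraries. mt-Rnr2, the 16S rRNA of the large subunit (chrM:1094-2675), was at 4194, 3023 and 4623 TPM in the control libraries and at 4230, 2836 and 4895 TPM in the Prdm16SMKO libraries. mt-Rnr1 was the higher of the pair in all 6 libraries, by a ratio of 1.07 to 1.29, which did not differ between the groups beyond their spread (exact permutation p = 0.4). Both rRNAs were the least abundant detected mitochondrial genes in their mean over the 6 libraries.

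All 22 tRNA genes were listed at 0 TPM in every library. They were not alone in this: of the 1026 genes in the table no longer than mt-Tl1, the longest of them, 0 were above 0 in any library, and the shortest gene above 0 had 140 bases. Of genes longer than 120 and up to 150 bases, 0.639% were above 0 in at least 1 library, against 13.1% of those longer than 250 and up to 300 bases and 73.1% of those over 1000 bases. A gene this short is below the length at which the table lists any level, so the value of 0 says nothing on the level of the tRNAs themselves. The balance between tRNAs and the other classes could therefore not be measured.

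**Figure D2:**
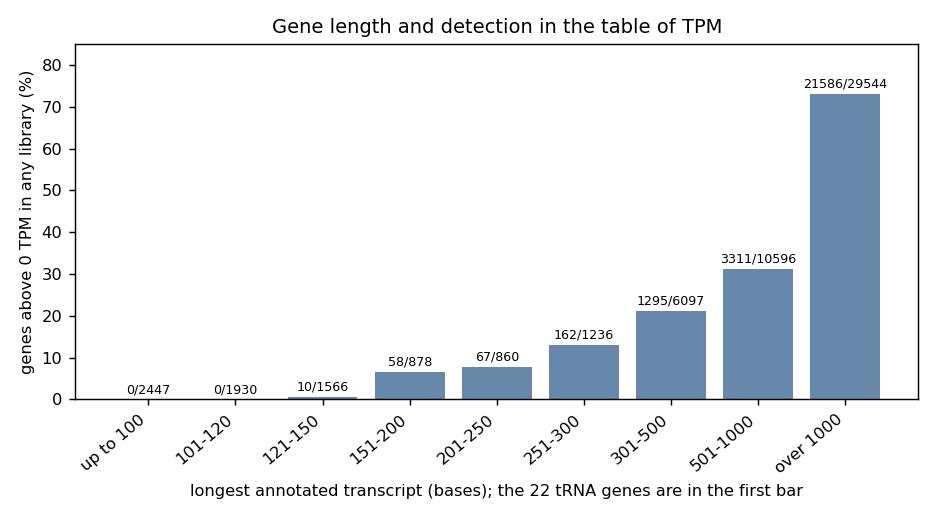
Each bar gives the percentage of genes above 0 TPM in at least 1 of the 6 libraries, for genes grouped by the length of their longest annotated transcript in bases. The first bar, which holds the 22 tRNA genes, stands at 0, and the last, for genes over 1000 bases, at 73.1%.

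mt-Atp8 and mt-Atp6 encode subunits of ATP synthase, which makes ATP from the proton gradient. mt-Atp8 was the most abundant mitochondrial gene on the TPM scale in every library, with 63702, 67575 and 57939 TPM in the control libraries and 78430, 50169 and 81532 TPM in the Prdm16SMKO libraries. It alone made up 29.7% to 33.1% of mitochondrial mRNA TPM. mt-Atp6 was at 7582, 8306 and 7129 TPM in the control libraries and at 9260, 5258 and 10211 TPM in the Prdm16SMKO libraries. The 2 genes lie on 1 RNA and share the 43 bases printed above, yet mt-Atp8 was listed 7.98 to 9.54 times higher than mt-Atp6. mt-Atp8, with 204 bases, is the shortest of the mRNA genes.

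Of the complex IV (cytochrome c oxidase) mRNAs, mt-Co1, which encodes the catalytic subunit, was by far the highest. It was at 24584, 27793 and 21262 TPM in the control libraries and at 35098, 18205 and 34573 TPM in the Prdm16SMKO libraries. mt-Co3, a core subunit, was at 8329, 8816 and 6335 TPM in the control libraries and at 10239, 6330 and 10718 TPM in the Prdm16SMKO libraries. mt-Co2, the subunit that takes up electrons from cytochrome c, was at 5531, 6042 and 4788 TPM and at 7240, 3945 and 7262 TPM. In all 3 genes Prdm16SMKO replicates 1 and 3 lay above every control library and Prdm16SMKO replicate 2 lay below every control library.

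The mt-Nd genes encode 7 membrane subunits of complex I (NADH dehydrogenase). mt-Nd4l was the highest of them, with a mean of 21195 TPM over the 6 libraries, followed by mt-Nd1 (14880 TPM), mt-Nd4 (13189 TPM), mt-Nd2 (11329 TPM), mt-Nd6 (7649 TPM), mt-Nd5 (6771 TPM) and mt-Nd3 (5885 TPM). By the ratio of the highest to the lowest share of mitochondrial mRNA TPM over the 6 libraries, mt-Nd4 was the steadiest of the 13 mRNAs, with 6.07% to 6.25%, and mt-Nd2 varied most, with 4.56% to 5.79%. mt-Cytb, the only mitochondrially encoded subunit of complex III, was at 17082, 18747 and 15024 TPM in the control libraries and at 22134, 12250 and 22403 TPM in the Prdm16SMKO libraries. Its share of mitochondrial mRNA TPM, 8.09% to 8.50%, varied little.

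mt-Nd6 is the only mRNA gene on the minus strand. It was at 6759, 8840 and 5929 TPM in the control libraries and at 10429, 4764 and 9173 TPM in the Prdm16SMKO libraries. Relative to the 12 other mRNAs together it stood at a log2 ratio of -4.85, -4.62 and -4.88 in the control libraries and -4.60, -4.94 and -4.79 in the Prdm16SMKO libraries. The groups overlapped and their means did not differ beyond the spread (exact permutation p = 1). Its last 14 bases lie opposite the last 14 of mt-Nd5 (chrM:13552-13565), and its level was 1.09 to 1.15 times that of mt-Nd5 in each library. The kit named in the labels does not mark strand, so reads of mt-Nd6 and reads of RNA from the opposite strand of the same stretch cannot be told apart, and this value is no measure of light-strand against heavy-strand transcription.

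The order of the levels was much the same in each library. mt-Atp8, mt-Co1, mt-Nd4l, mt-Cytb, mt-Nd1, mt-Nd4 and mt-Nd2 held the first 7 places, in that order, in all 6 libraries. Further down, mt-Co3 was above mt-Atp6 in 5 of 6 libraries, mt-Atp6 above mt-Nd6 in 4, mt-Nd3 above mt-Co2 in 5 and mt-Co2 above mt-Rnr1 in 5, so the order of these neighbours did not hold in each library.

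**Figure D3:**
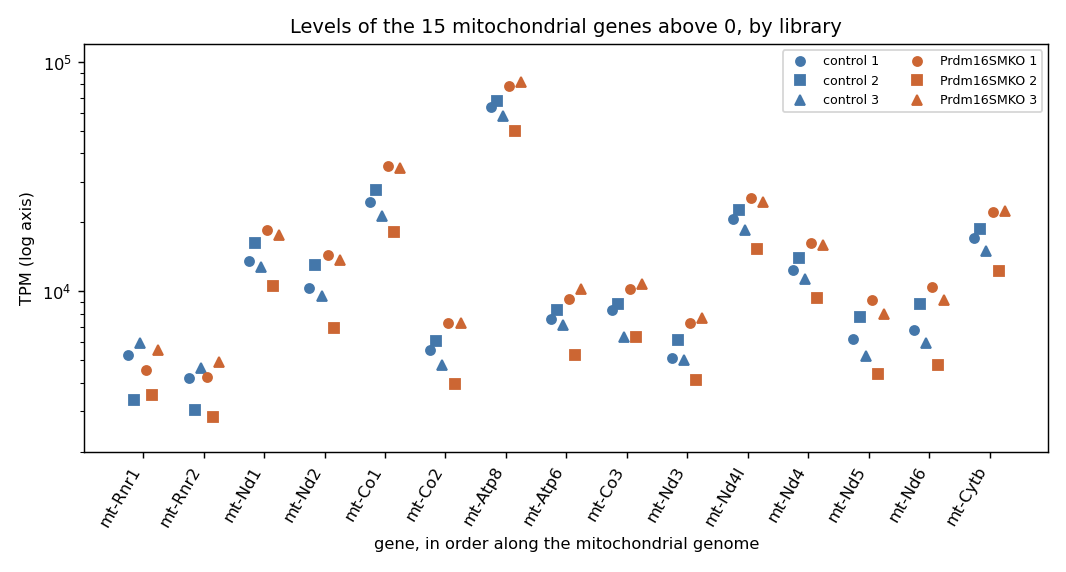
Points give the TPM, on a log axis, of each of the 15 mitochondrial genes above 0 in each of the 3 control and 3 Prdm16SMKO libraries, with genes in their order along the mitochondrial genome. mt-Atp8 lies above all other genes at 50169 to 81532 TPM, and Prdm16SMKO replicate 2 is the lowest library for each gene but mt-Rnr1.

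Several of these genes have copies of the same sequence in the nuclear genome, which are rows of the table in their own right. On chromosome 1, at chr1:24611535-24616197 on the minus strand, lie 7 unprocessed pseudogenes that are near-complete or partial copies of mitochondrial mRNA genes, found here by aligning all annotated transcripts to the 37 genes. Of these, 5 were identical to the mitochondrial gene over their whole length, namely Gm28439 (mt-Nd4, 876 bases), Gm10222 (mt-Nd4l, 294 bases), Gm28437 (mt-Co3, 783 bases), Gm10925 (mt-Atp6, 678 bases) and Gm28661 (mt-Co2, 681 bases). Gm28438 (mt-Nd3, 345 bases) differed by 1 base, T3C, counted from the first base of mt-Nd3, and Gm29216 (mt-Co1, 492 bases) by 6. The starts of mt-Nd3 and Gm28438 are shown with that base in capitals, since reads that do not cross it are the same for both.
mt-Nd3 (chrM:9459-9806, plus strand), start: atTaacctgtacactgttatcttcatt
Gm28438 (chr1:24612775-24613119, minus strand), start: atCaacctgtacactgttatcttcatt

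The copies held a substantial level of their own in the table. Gm10925 was listed at a mean of 16330 TPM over the 6 libraries against 7958 TPM for mt-Atp6, and Gm28661 at 8628 TPM against 5802 TPM for mt-Co2. The copy thus took 65.1% to 69.9% of the TPM of the mt-Atp6 pair and 57.3% to 62.0% of the mt-Co2 pair. It took 36.5% to 46.0% of the mt-Co3 pair and 22.9% to 26.1% of the mt-Nd4 pair, but at most 3.89% of the mt-Nd3 pair, 3.41% of the mt-Nd4l pair and 2.01% of the mt-Co1 pair. Together the 7 copies held 3.21%, 3.66% and 3.02% of library TPM in the control libraries and 4.53%, 2.62% and 4.62% in the Prdm16SMKO libraries. These shares overlapped between the groups (exact permutation p = 0.4). For Gm10222, Gm28438 and Gm10925, the share of the pair did not overlap between the groups. Over all genes tested, the levels of 12.8% did not overlap. Gm10222 held 2.18%, 2.37% and 2.41% of the mt-Nd4l pair in the control libraries and 3.23%, 3.23% and 3.41% in the Prdm16SMKO libraries, without overlap, while its own level did not pass the test (log2 fold change 0.57, SE 0.23, limma adjusted p = 0.504). Gm28438 held 2.77%, 1.87% and 2.58% of the mt-Nd3 pair against 3.89%, 3.22% and 2.79%, without overlap only by 2.79% against 2.77% (log2 fold change 0.65, SE 0.26, limma adjusted p = 0.522). Gm10925 held 66.5%, 66.4% and 65.1% of the mt-Atp6 pair against 68.4%, 69.9% and 67.2% (log2 fold change 0.21, SE 0.27, limma adjusted p = 0.923). All of them were singled out after their values were seen. Copies on other chromosomes, with less identity, were listed at means of 0.103 to 5.22 TPM. Since a read from an identical stretch cannot be told apart by sequence, the listed split between gene and copy there is no measure of either alone. The levels of mt-Co2, mt-Co3, mt-Atp6, mt-Nd4 and mt-Nd4l are therefore uncertain, by amounts that these percentages do not bound.

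**Figure D4:**
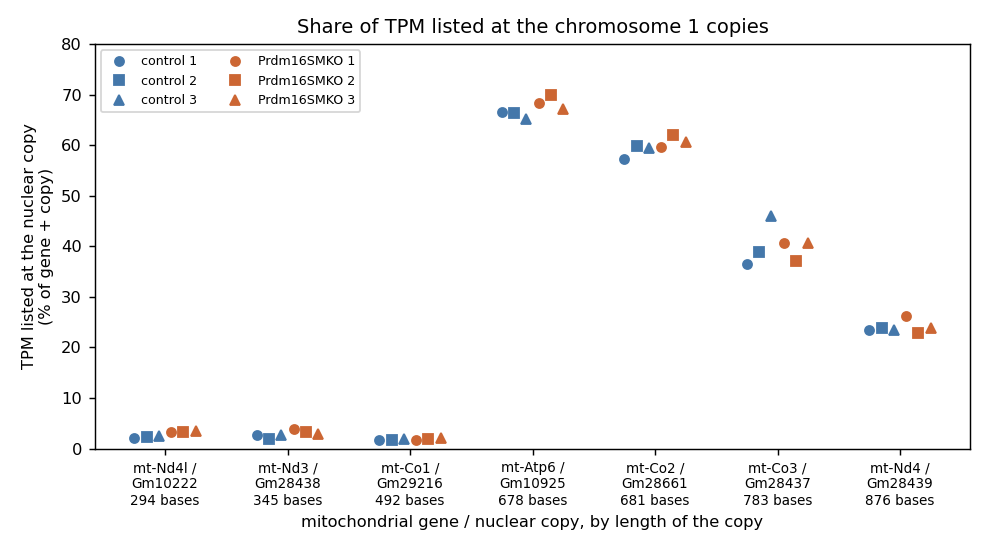
Points give, for each of 7 mitochondrial genes and each of the 6 libraries, the TPM listed at the chromosome 1 copy as a percentage of the TPM of gene and copy together, with pairs ordered by the length of the copy. The copy of mt-Atp6 holds 65.1% to 69.9% in every library, and the copies of mt-Nd3, mt-Nd4l and mt-Co1 hold under 4% throughout.

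With the TPM of the copies added to their genes, the mean of mt-Atp6 went from 7958 to 24288 TPM, mt-Co2 from 5802 to 14433 TPM, mt-Co3 from 8461 to 14115 TPM and mt-Nd4 from 13189 to 17379 TPM. The ratio of mt-Atp8 to mt-Atp6, 7.98 to 9.54 without the copies, was 2.62 to 2.87 with them. That of mt-Nd4l to mt-Nd4 went from between 1.54 and 1.67 to between 1.21 and 1.31. One ratio between genes that separated the groups did so only without the copies. mt-Co1 over mt-Co2 was 4.44, 4.60 and 4.44 in the control libraries and 4.85, 4.61 and 4.76 in the Prdm16SMKO libraries, with no overlap (exact permutation p = 0.1). With copies it was 1.93, 1.88 and 1.83 against 1.99, 1.79 and 1.92 (exact permutation p = 0.9). It was singled out after its values were seen.

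Divided among the complexes, complex I and complex V held similar parts of mitochondrial mRNA TPM over all 13 mRNAs, and complex III the smallest. This order rested on the shortest mRNAs: without mt-Atp8 and mt-Nd4l, complex V held 5.79% to 6.83%, complex III 13.8% to 14.5% and complex I 45.8% to 48.6%. Complex I held 37.2%, 39.2% and 37.8% in the control libraries and 38.5%, 36.5% and 36.7% in the Prdm16SMKO libraries (exact permutation p = 0.5). Complex V held 35.3%, 33.6% and 36.0% against 33.2%, 36.6% and 34.8% (exact permutation p = 1). Complex IV held 19.0%, 18.9% and 17.9% against 19.9%, 18.8% and 19.9% (exact permutation p = 0.3). Complex III, mt-Cytb, held 8.46%, 8.30% and 8.31% against 8.39%, 8.09% and 8.50% (exact permutation p = 0.9). The groups overlapped in all 4, and no share differed between them by more than 0.943 percentage points.

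The complex IV share came closest to a separation of the groups. Its mean was 18.6% ± 0.610 in control mice and 19.6% ± 0.647 in Prdm16SMKO mice (SD, n = 3 each). Without mt-Atp8 and mt-Nd4l, the shortest mRNAs, it was 32.7%, 31.4% and 31.0% in the control libraries and 32.9%, 33.1% and 33.4% in the Prdm16SMKO libraries. The groups then did not overlap and differed by 1.41 percentage points (exact permutation p = 0.1, the smallest value possible). That setting was added after seeing the data. In a separate setting, with all 13 mRNAs kept and the nuclear copies counted, the difference was 0.935 percentage points and the groups overlapped (exact permutation p = 0.2). The 2 changes were not combined.

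Gene by gene, no mitochondrial transcript passed the test between Prdm16SMKO and control mice. In limma over the 15775 genes whose mean over the libraries reached 0.5 TPM, 15 of the 37 mitochondrial genes were tested, the tRNAs having been at 0. Of these 15, 0 were called at a Benjamini-Hochberg adjusted p under 0.05, beside 0.355% of all genes tested, and 0 had an unadjusted p under 0.05, beside 8.74%. The values of control and Prdm16SMKO mice overlapped for all 15, whereas they did not overlap for 12.8% of all genes. The log2 fold change was above 0 for 14 of the 15, beside 54.2% of all genes, with a median of 0.11 beside 0.02. This count was 13 with median-of-ratios size factors, 12 with quantile normalization, 12 with the 45S genes left out and 11 with array weights. Since the 15 genes share their transcripts and the scale of each library, these signs are not independent of each other.

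The lowest adjusted p among them was that of mt-Co3 (log2 fold change 0.19, SE 0.26, adjusted p = 0.936 by limma). The largest fold change was that of mt-Co1 (log2 fold change 0.20, SE 0.31, adjusted p = 0.950 by limma). The other mRNAs lay between 0.03 for mt-Nd2 and 0.17 for mt-Nd3 on the log2 scale, with mt-Atp8 at 0.12, mt-Nd6 at 0.12, mt-Nd5 at 0.12, mt-Co2 at 0.12, mt-Cytb at 0.11, mt-Nd1 at 0.10, mt-Nd4 at 0.10, mt-Nd4l at 0.05 and mt-Atp6 at 0.05. mt-Rnr2 was at 0.00 and mt-Rnr1 at -0.08. Taking each gene as its share of the mitochondrial total lowers every log2 fold change by the same 0.11 and so centres the 15 genes by construction. On that scale they ran from -0.19 for mt-Rnr1 to 0.092 for mt-Co1. With the copies counted the median was 0.12 and 0 genes were called.

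**Figure D5:**
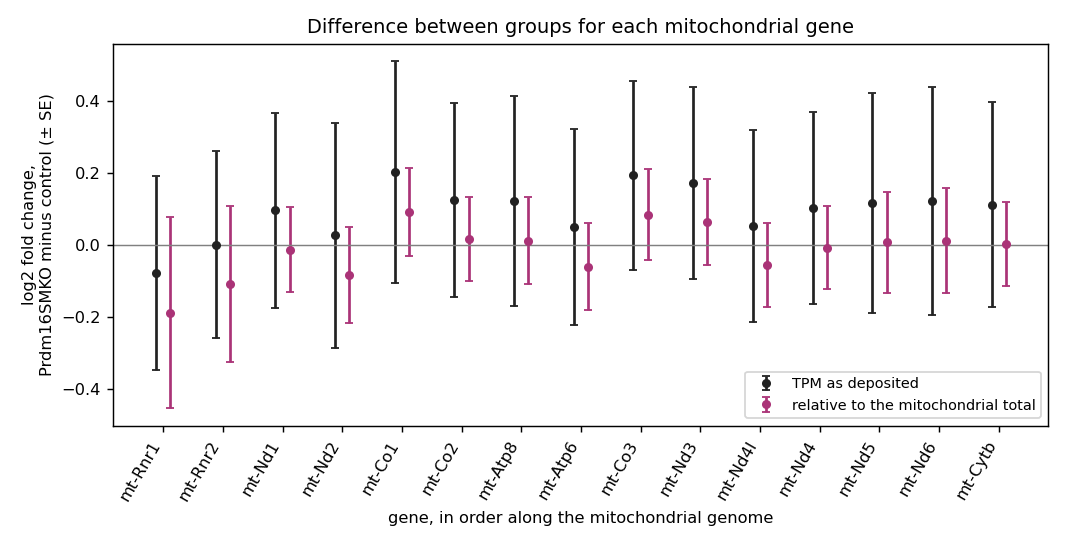
Points give the log2 fold change of Prdm16SMKO minus control for each of the 15 mitochondrial genes, with bars of 1 SE, for TPM as deposited and for each gene as its share of the mitochondrial total. For TPM as deposited all points lie within 1 SE of 0 with a median of 0.11, and relative to the mitochondrial total all points lie lower by the same 0.11.

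The direction depended on which Prdm16SMKO libraries were counted. Replicate 2 was the lowest of the 6 libraries for 14 of the 15 genes, mt-Rnr1 being the exception. Without it all 15 were higher in Prdm16SMKO mice and their median was 0.37 on the log2 scale, 2 (mt-Co1 and mt-Nd3) had an unadjusted p under 0.05, beside 7.33% of all genes in that fit, and 0 were called by limma. Leaving out Prdm16SMKO replicate 1 gave a median of -0.053 and leaving out replicate 3 gave -0.023, with 4 of 15 higher in each case. The medians over all genes in these fits were -0.01 and 0.06. Among control mice, leaving out replicate 3 gave 0.029, beside a median of -0.07 over all genes. Leaving out control replicate 2 gave 0.19, beside 0.11 over all genes, so the median over all genes rose as well. The rRNAs moved the other way in that fit, mt-Rnr1 to -0.32 and mt-Rnr2 to -0.18.

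The Prdm16SMKO libraries lay further apart from each other than the control libraries did. The coefficient of variation of the 13 mRNAs ran from 7.69% to 20.9% over the 3 control libraries and from 24.7% to 36.6% over the 3 Prdm16SMKO libraries. It was larger in Prdm16SMKO mice for 14 of the 15 genes. For mt-Rnr1 it was 27.6% in control mice and 22.3% in Prdm16SMKO mice. With 3 libraries a group and 1 library lowest in nearly all genes, this is a description of these libraries, and the difference in spread was not tested.

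The nuclear genes of the same complexes gave a second scale for the mitochondrial mRNAs, one that does not depend on the library total. On the log2 scale, summed mitochondrial mRNA stood above summed nuclear mRNA of complexes I, III, IV and V by 4.19, 4.33 and 4.42 in the control libraries and by 4.53, 3.997 and 4.16 in the Prdm16SMKO libraries. The means of 4.31 ± 0.11 and 4.23 ± 0.27 (SD, n = 3 each) did not differ beyond the spread (exact permutation p = 0.7). Prdm16SMKO replicate 2 was again the lowest. Prdm16SMKO replicate 3, which had the highest mitochondrial share of library TPM, was now below every control library, narrowly so for control replicate 1. With median log2 TPM in place of summed TPM it was at 6.54, against 6.44, 6.81 and 6.70 in the control libraries, so this position depended on the measure. Its adipocyte markers were the highest, and their part in this ratio was not tested. By complex, the mitochondrial mRNAs summed to 19.7 to 29.3 times the TPM of the nuclear ones for complex I, 18.3 to 26.0 times for complex V, 11.2 to 17.2 times for complex IV and 11.001 to 16.4 times for complex III.

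Of the nuclear genes of complexes I to V, 79 of 82 were tested, and 70 were higher and 9 lower in Prdm16SMKO mice. Over all genes 54.2% were higher. Their median log2 fold change was 0.18 beside 0.02 over all genes. This direction rested on Prdm16SMKO replicate 3, the library with the highest adipocyte markers. Without it 43 (54.4%) were higher and 36 lower with a median of 0.011, beside 60.4% of all genes higher and a median of 0.06. The difference in summed TPM then went from 373 to 17.9 for complex I and from 527 to 37.1 for complex IV. Without control replicate 3, 59 (74.7%) were higher and 20 lower, with a median of 0.048, beside 40.1% of all genes higher and a median of -0.07. The 6 white adipocyte markers were all higher in Prdm16SMKO mice, their median log2 fold change being 1.005 with 0 called. The 5 brown adipocyte markers tested were all lower, with a median of -0.39 and 0 called. Without Prdm16SMKO replicate 2 those 5 were all higher, with a median of 1.07. The part of either set of markers in the nuclear genes was not tested. None of the 79 nuclear genes of the complexes passed the test. Of them, 0 had an unadjusted p under 0.05, beside 8.74% of all genes, and 0 had groups that did not overlap, beside 12.8%. The median was 0.17 for complex I, 0.29 for complex II, 0.16 for complex III, 0.19 for complex IV and 0.19 for complex V. The lowest p values among them were those of Ndufc1 and Ndufb4, accessory subunits of complex I, and Sdhc, a membrane anchor of complex II. Ndufc1 was at 104 ± 2.04 TPM in control mice and 136 ± 27.0 TPM in Prdm16SMKO mice (SD, n = 3 each, limma adjusted p = 0.641). Ndufb4 was at 19.1 ± 4.07 and 26.1 ± 5.17 TPM (limma adjusted p = 0.641), and Sdhc at 73.1 ± 13.1 and 94.7 ± 18.0 TPM (limma adjusted p = 0.705).

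The nuclear genes that transcribe and maintain mitochondrial DNA showed no common direction. All 19 were tested, and 8 (42.1%) were higher and 11 lower in Prdm16SMKO mice, beside 54.2% of all genes higher. The median was -0.034 on the log2 scale. Of the 19, 0 were called by limma, beside 0.355% of all genes, and 0 had an unadjusted p under 0.05, beside 8.74%. Without control replicate 1, 13 (68.4%) were higher with a median of 0.092, beside 55.0% of all genes. Without control replicate 3, 6 (31.6%) were higher with a median of -0.18, beside 40.1% of all genes. Polrmt, the mitochondrial RNA polymerase, was at 8.41, 10.4 and 4.57 TPM in the control libraries and at 10.01, 10.8 and 9.73 TPM in the Prdm16SMKO libraries (log2 fold change 0.43, SE 0.27, limma adjusted p = 0.779). Control replicate 3 was the lowest for Polrmt and, among control mice, in mitochondrial share, whereas Prdm16SMKO replicate 2 was the highest for Polrmt and the lowest in mitochondrial share. The part of Polrmt in the mitochondrial share was not tested. Tefm, a transcription elongation factor, was at 3.67 ± 0.580 and 2.82 ± 0.804 TPM (limma adjusted p = 0.821). Twnk, the helicase of mitochondrial DNA replication, was at 4.01 ± 0.438 and 4.83 ± 0.202 TPM (SD, n = 3 each, limma adjusted p = 0.836), and its groups did not overlap. The same held for Mgme1, a nuclease of mitochondrial DNA maintenance singled out for this, at 3.92 ± 0.298 and 4.67 ± 0.145 TPM (limma adjusted p = 0.846), so that 2 of the 19 were higher without overlap, beside 7.02% of all genes. Tfam, which packages mitochondrial DNA and starts transcription, differed by 0.06 on the log2 scale.

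Of the genes that process, tail and degrade mitochondrial RNA, 33 of 36 were tested, of which 26 were higher and 7 lower, with a median log2 fold change of 0.11. Without control replicate 3 the counts were 14 (42.4%) and 19, with a median of -0.021, near the 40.1% higher and the median of -0.07 over all genes. With all 6 libraries, 0 of the 33 were called by limma and 0 had an unadjusted p under 0.05, beside 8.74% of all genes. Supv3l1, the helicase of mitochondrial RNA decay, was at 6.66 ± 0.845 TPM in control mice and 8.42 ± 1.17 TPM in Prdm16SMKO mice (SD, n = 3 each, limma adjusted p = 0.744). Fastkd5, which takes part in the maturation of mRNAs that no tRNA flanks, was at 2.07, 2.13 and 2 TPM in the control libraries and 2.18, 3.13 and 2.89 TPM in the Prdm16SMKO libraries, without overlap but short of the threshold (limma adjusted p = 0.821). Trnt1, which adds the CCA end to tRNAs, was at 10.95 ± 2.42 and 13.02 ± 2.12 TPM (limma adjusted p = 0.868). Of 8 regulators of mitochondrial biogenesis, 5 were higher and 3 (Nrf1, Gabpb1 and Yy1) lower, with a median log2 fold change of 0.06 and 0 called. Ppargc1a, a coactivator of that programme and abundant in brown adipocytes, was at 1.67, 1.20 and 1.07 TPM in the control libraries and at 1.92, 1.09 and 4.46 TPM in the Prdm16SMKO libraries (limma adjusted p = 0.825). It was highest in the library with the most brown adipocyte markers, and the part of these cells in its level was not tested.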

How the data were processed

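Values were used as deposited: TPM per gene that the authors scaled to the same total in each library and rounded to 2 decimals. The submitters' processing notes name GRCm38, cutadapt 2.3, STAR 2.7.8a and RSEM 1.3.3, without their roles, and the annotation is not given in the sources used here. Positions and sequences are from GENCODE M21 (55154 of 55426 identifiers matched). log2(TPM + 0.5) of genes whose mean reached 0.5 TPM was compared by limma (3.58.1, under R 4.3.3), using a variance trend and two-sided p-values adjusted by Benjamini-Hochberg over all genes. Fold changes on this scale understate those of low genes. Shares and ratios were compared by exact permutation. Nuclear copies were transcripts with at least 95% identity over at least 80% of their length by BLAST+ 2.17.0. Of the 6 libraries, 0 pairs were identical. The mitochondrial rRNA and mRNA genes are all named, as are the 3 genes of lowest unadjusted p in the nuclear lists for the complexes, transcription and RNA processing. Other genes, among them Tfam, Ppargc1a and the nuclear copies, were picked after seeing their values. The members and lists were chosen with earlier results of these data known. Alternatives were pseudocounts of 0.1 and 1, other expression minimums, scalings, denominators and variance models, a replicate block, and each library left out.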

Additional observations from a re-analysis of the deposited data

How the results depend on the processing

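The depth behind each value is unknown, and 3 libraries against 3 cannot go below an exact p of 0.1. The number of mitochondrial genes called by limma was 0 in every setting run (lowest adjusted p of any mitochondrial gene in any setting 0.493, with array weights), so no setting changed a call for these genes. The number of genes called over the whole table was 56 and depended on the setting: 10 with no expression minimum, 153 with median-of-ratios size factors, 134 with quantile normalization, 494 with array weights, 112 with robust variances, 4 with the replicate block and 5 to 61 with 1 library left out. The split of higher against lower calls was 29 to 27, but 60 to 93 with median-of-ratios size factors, 48 to 86 with quantile normalization, 35 to 46 with the 45S genes left out and 31 to 46 with a minimum of 2 TPM. The replicate numbers did not pair the libraries (correlation of deviations -0.13, -0.11 and 0.02 for numbers 1, 2 and 3), and with the replicate block the mitochondrial share differed by 2.32 percentage points and 0 mitochondrial genes were called.

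Over the 6 fits without 1 library, the difference in mitochondrial share ran from 0.364 to 6.17 percentage points, in rRNA share from -1.31 to 0.0782, in protein-coding share from -0.0782 to 1.31, in complex I share from -1.45 to -0.250, in complex III share from -0.120 to 0.0857, in complex IV share from 0.594 to 1.32 and in complex V share from -0.951 to 0.746. The log2 ratio to nuclear mRNA differed by -0.23 to 0.034, that of mt-Nd6 by -0.085 to 0.086, and the median log2 fold change ran from -0.053 to 0.37. With the copies added, the difference in complex V share was 0.0221 (without them -0.0869) and that in the mt-Nd6 ratio -0.010.

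Small log2 fold changes turned sign. Some scalings shift all 15 genes by the same amount, so that these changes of sign follow from their construction. Relative to the mitochondrial total the shift was -0.11, which put mt-Rnr2 at -0.11, mt-Nd1 at -0.014, mt-Nd2 at -0.083, mt-Atp6 at -0.060, mt-Nd4l at -0.056 and mt-Nd4 at -0.0074. With the 45S genes left out it was -0.031, which put mt-Rnr2 at -0.030 and mt-Nd2 at -0.0046, and with median-of-ratios size factors it was -0.013, which put mt-Rnr2 at -0.012. With array weights, mt-Rnr2 was at -0.15, mt-Atp6 at -0.0053 and mt-Nd4l at -0.0057, and with quantile normalization, mt-Nd2 was at -0.041 and mt-Atp6 at -0.12. For array weights and quantile normalization the cause was not tested. Over the fits without 1 library, log2 fold changes ran from -0.32 to 0.088 for mt-Rnr1, -0.18 to 0.23 for mt-Rnr2, -0.053 to 0.36 for mt-Nd1, -0.16 to 0.37 for mt-Nd2, -0.023 to 0.42 for mt-Co2, -0.0050 to 0.35 for mt-Atp8, -0.13 to 0.34 for mt-Atp6, -0.079 to 0.29 for mt-Nd4l, -0.033 to 0.36 for mt-Nd4, -0.10 to 0.44 for mt-Nd5, -0.10 to 0.47 for mt-Nd6 and -0.036 to 0.40 for mt-Cytb. Without control replicate 2 the median over all genes was 0.11.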
